A study of Mus musculus with 8 samples.

Results

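GABAergic interneurons are the inhibitory neurons of the hippocampus. The description here covers 10 genes that are commonly used to recognise them and their classes: *Gad1*, *Gad2*, *Sst*, *Pvalb*, *Vip*, *Npy*, *Cck*, *Lamp5*, *Reln* and *Calb2*. These 10 genes were taken by symbol from a count table of 50686 genes, of which 27483 had at least 1 read and 16018 had enough reads to be tested. All 10 markers were among the genes tested. The data were bulk RNA-seq counts from the ventral hippocampus of male, 8-week-old C57B6/J mice (given as C57BL/6J in the study's methods) without any genetic modification. The vehicle group held 4 mice that received a vehicle injection, and the corticosterone group held 4 mice that received 3 mg/kg corticosterone, the main glucocorticoid (GC) of rodents. Mice of both groups were killed 3 h after the injection. Each library came from 1 mouse, and the libraries are numbered 1 to 4 (vehicle) and 5 to 8 (corticosterone).

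Interneurons make GABA from glutamate with glutamate decarboxylase, which is encoded by *Gad1* and *Gad2*. Classes of interneurons differ in the part of the pyramidal cell that they contact, and in the peptides and calcium-binding proteins that they contain. Cells with somatostatin mainly contact dendrites, cells with parvalbumin mainly contact the soma and the axon initial segment, and many cells with vasoactive intestinal peptide contact other interneurons. Neurogliaform cells of the Lamp5 class release GABA more diffusely. GCs act through GR and MR, the receptors named after glucocorticoids and mineralocorticoids, which bind DNA at GC response elements. In a bulk sample of tissue, fewer cells of a class and less RNA per cell cannot be told apart.

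Several members encode peptide precursors, and the promoter of *Sst* is a textbook example of a cAMP response element (CRE). The sequences directly before the RefSeq start sites of the 4 peptide genes are shown because these genes carried the widest differences between libraries. Each is a stretch of 120 bases of GRCm38.p6, written 5′ to 3′ on the strand of the gene, and capitals mark TGACG or TGACGTCA on either strand.
*Sst*, chr16:23890845-23890964, minus strand: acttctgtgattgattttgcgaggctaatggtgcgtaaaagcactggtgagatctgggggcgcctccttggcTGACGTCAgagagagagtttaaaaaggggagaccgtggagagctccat
*Vip*, chr10:5639098-5639217, plus strand: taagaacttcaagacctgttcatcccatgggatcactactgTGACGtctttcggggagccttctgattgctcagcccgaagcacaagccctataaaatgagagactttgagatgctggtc
*Cck*, chr9:121495695-121495814, minus strand: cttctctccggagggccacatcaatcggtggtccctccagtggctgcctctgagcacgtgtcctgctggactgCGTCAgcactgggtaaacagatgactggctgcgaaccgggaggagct
*Npy*, chr6:49822590-49822709, plus strand: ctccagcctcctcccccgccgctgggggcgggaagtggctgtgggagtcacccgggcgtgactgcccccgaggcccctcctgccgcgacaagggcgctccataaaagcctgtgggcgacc

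The complete CRE, TGACGTCA, was found in the 250 bases before the start site of *Sst* and of no other member among the 9 that were in the RefSeq table. It was present in 1.55% of the 32851 promoters of that table. Its shorter core, TGACG, was present in 4 members (*Sst*, *Cck*, *Vip* and *Gad2*) and in 17.8% of all promoters, and the 2 matches in *Sst* both lie inside the complete element. The *Npy* stretch shown holds neither. The GC response element searched, AGAACA and TGTTCT with any 3 bases between them, was found in 0 of the 9 members and in 0.00913% of all promoters. Its left part, AGAACA, was found in *Lamp5* alone among the members, 235 bases before the start site, and in 16.1% of all promoters. Both strands were searched, and a match describes the letters of the window only. *Calb2* was not matched in the table.

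The libraries held 17492159 to 19931987 reads on genes. The positive control for treatment, *Fkbp5* (chromosome 17, 28399094 to 28517527 of GRCm38), a cochaperone of GR that is a classic GC target, was at 1957 ± 301 normalized counts (SD, n = 4) after vehicle and at 3310 ± 159 (n = 4) in the corticosterone group. This gave a log2 fold change of 0.76 (SE 0.097), with an adjusted p value of 0.0481 in the quasi-likelihood test of edgeR, and all 4 corticosterone libraries lay above all 4 vehicle libraries. *Fkbp5* was the only gene that passed the adjusted threshold of 0.05 in this test, and DESeq2 called 63 genes. The study, with an earlier version of DESeq2 and the same threshold, reported more GC-responsive genes than that. The reason for this difference was not examined. Libraries within a group were not alike. The share of reads that could not be given to a single gene (ambiguous reads) was 1.64% to 1.67% in vehicle libraries 1 to 3, 1.40% in vehicle library 4, 1.48% in corticosterone library 5 and 1.25% to 1.28% in corticosterone libraries 6 to 8. The share of reads aligned to more than 1 place was 0.0699% to 0.111% after vehicle and 0.0420% to 0.0536% after corticosterone. The ranges of this second share did not overlap between the groups (exact two-sided permutation p = 0.0286, the smallest possible). Its part in the differences between the groups was not tested. The first principal component of all genes, with 33.7% of the variance, placed corticosterone library 5 at -19.2 among vehicle libraries 1 to 3 (-24.8 to -8.33), and vehicle library 4 at 5.11, towards corticosterone libraries 6 to 8 (18.9 to 23.5). Values of the markers are therefore given for every library, and with and without corticosterone library 5.

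None of the 10 markers was called as differentially expressed between corticosterone and vehicle with all 8 libraries. In the edgeR test 0 of 10 had an adjusted p value under 0.05, against 0.00624% of all genes tested, and DESeq2 also called 0, against 0.374% of all genes. At an unadjusted p value under 0.05 there was 1 member, *Cck*, against 9.03% of all genes tested. By its point estimate *Cck* was lower after corticosterone, and 4.52% of all genes were at this level in the lower direction and 4.51% in the higher one. The ranges of the groups overlapped for all 10 markers, while 3.66% of all genes had groups without overlap. Of the markers, 6 had a log2 fold change above 0 and 4 below it, where 50.7% of all genes were above 0. Their median log2 fold change was 0.020, beside 0.004 over all genes tested. The following values are normalized counts unless stated otherwise, that is, counts scaled by the TMM method of edgeR to a common library size.

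**Figure D1:**
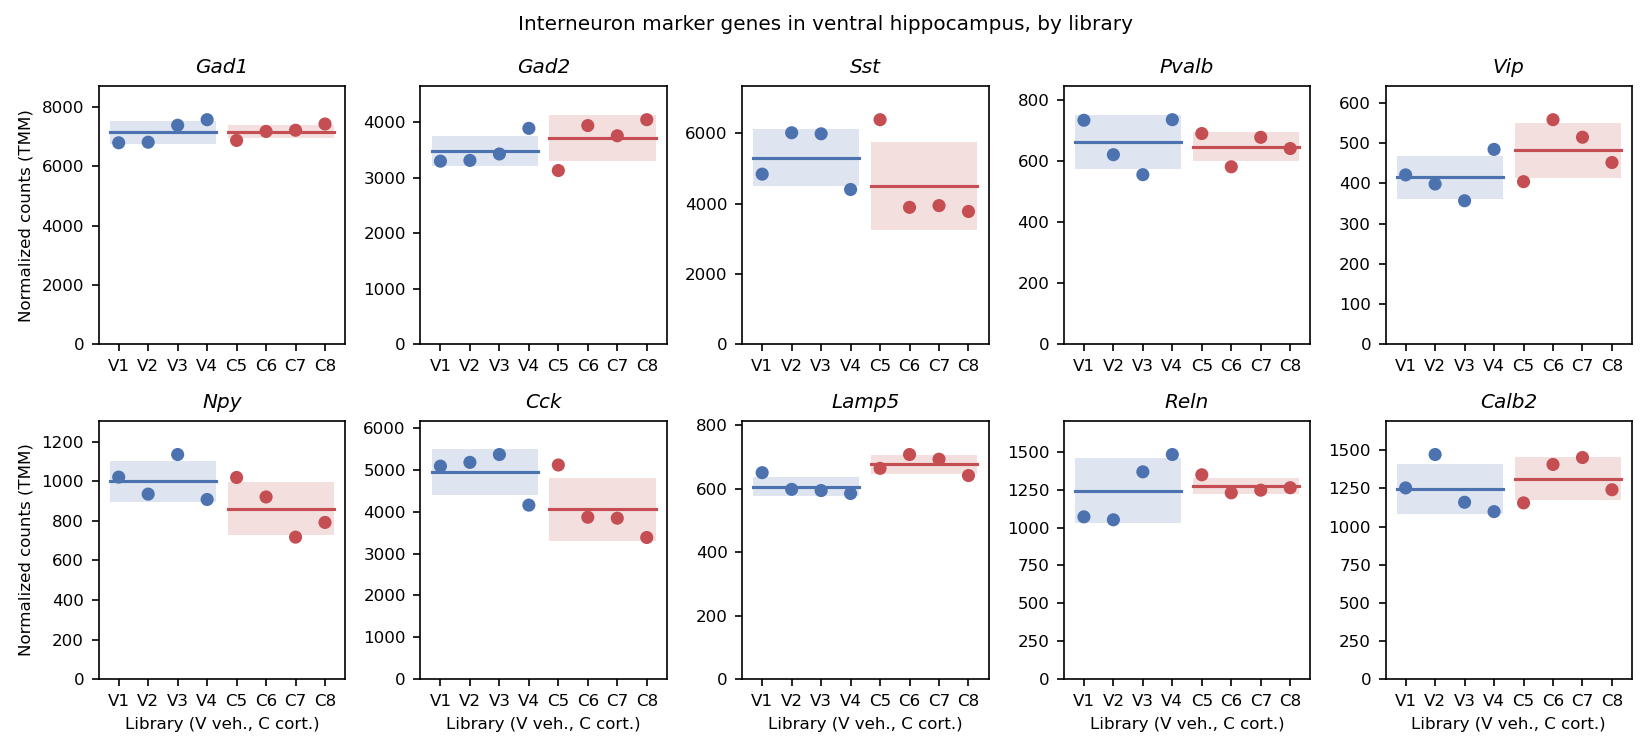
Normalized counts (vertical axes, from 0) of the 10 interneuron markers in each library (V1 to V4 vehicle, C5 to C8 corticosterone); lines are group means and shaded bands are ± 1 SD (n = 4). The groups overlap in every panel, and library C5 lies apart from C6 to C8 for *Sst* (6388 against 3778 to 3944).

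The synthesizing enzymes differed between the groups by less than the SD. *Gad1* (ENSMUSG00000070880, chromosome 2, 70553072 to 70602014) encodes the decarboxylase that makes most of the GABA of the cell body. It was at 6792, 6811, 7383 and 7571 in the vehicle libraries and at 6872, 7176, 7215 and 7425 in the corticosterone libraries, so that the corticosterone values lay entirely within the vehicle range. The group means were 7139 ± 397 and 7172 ± 228 (SD, n = 4 each). The log2 fold change was 0.01 (SE 0.064, edgeR adjusted p = 0.974), and the 95% interval of the fold change was 0.912 to 1.11. A pseudogene with a related sequence, *Gad1-ps*, was counted at means of 33.9 in either group (chosen after its values were seen). *Gad2* (ENSMUSG00000026787, chromosome 2, 22622205 to 22693874), which encodes the decarboxylase that is mainly found at synaptic terminals, was at 3294, 3308, 3424 and 3885 after vehicle and at 3126, 3935, 3751 and 4041 after corticosterone. Library 5 was the lowest and library 8 the highest of all 8 libraries for *Gad2*, both of the corticosterone group. Its log2 fold change was 0.09 (SE 0.089, edgeR adjusted p = 0.688), with an interval of 0.935 to 1.22 for the fold change. When the ambiguous share, which largely followed treatment, was added to the fit as a covariate, both enzymes were below 0 in log2 fold change (*Gad1* -0.10, *Gad2* -0.21).

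Among the peptide genes, *Sst* (ENSMUSG00000004366, chromosome 16, 23889573 to 23890958) encodes somatostatin, which marks interneurons of the stratum oriens and the hilus. It was at 4839, 6017, 5987 and 4402 after vehicle and at 6388, 3895, 3944 and 3778 after corticosterone. The highest value of all 8 libraries was that of corticosterone library 5, whereas the other 3 corticosterone libraries lay below every vehicle library. Over all libraries the log2 fold change of *Sst* was -0.24 (SE 0.160, edgeR adjusted p = 0.601) and the fold change lay between 0.667 and 1.08. The exact permutation test over the 70 assignments of 4 against 4 libraries, in which the smallest two-sided p value is 0.0286, gave 0.229.

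*Cck* (ENSMUSG00000032532, chromosome 9, 121489824 to 121495694) encodes cholecystokinin, which marks basket cells that carry the cannabinoid receptor, and is also expressed by pyramidal cells. It had 5089, 5180, 5367 and 4157 normalized counts after vehicle, with vehicle library 4 below the other 3. After corticosterone it had 5116, 3868, 3846 and 3384, of which the first, library 5, lay within the vehicle range and the other 3 lay below it. The means were 4948 ± 540 and 4054 ± 743 (SD, n = 4 each), and the log2 fold change was -0.29 (SE 0.118, unadjusted p = 0.0301, edgeR adjusted p = 0.532). The interval of the fold change of *Cck* was 0.686 to 0.978, while the exact permutation test gave a two-sided p of 0.0857.

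*Npy* (ENSMUSG00000029819, chromosome 6, 49822710 to 49829507) encodes neuropeptide Y, which is contained in neurogliaform and ivy cells and in part of the somatostatin cells. It was at 1021, 935, 1136 and 908 after vehicle and at 1020, 921, 718 and 792 after corticosterone, so that corticosterone libraries 7 and 8 alone lay below the vehicle range. The log2 fold change was -0.21 (SE 0.111, edgeR adjusted p = 0.546), with a fold change between 0.731 and 1.02. *Vip* (ENSMUSG00000019772, chromosome 10, 5639218 to 5647617) encodes vasoactive intestinal peptide and had the fewest reads of the members, from 365 before normalization. It was at 421, 399, 357 and 485 after vehicle and at 405, 559, 515 and 452 after corticosterone, with libraries 6 and 7 above all vehicle libraries. The log2 fold change of *Vip* was 0.21 (SE 0.120, edgeR adjusted p = 0.557), and the fold change lay between 0.970 and 1.39. The sign of each of these 4 peptide genes depended on the fit: when the ambiguous share was included as a covariate, the log2 fold changes were 0.36 for *Sst* (unadjusted p = 0.0112, edgeR adjusted p = 0.283), 0.16 for *Cck*, 0.09 for *Npy* and -0.15 for *Vip*. The ambiguous share itself largely followed treatment (exact two-sided permutation p = 0.0571 between the groups), so that this fit separates share and treatment poorly. That fit called 0 of the 10 members (0.237% of all genes) and placed 2 of them, *Sst* and *Gad2*, at an unadjusted p value under 0.05 (11.7% of all genes). Over the other alternatives run, *Sst* had log2 fold changes below 0 and adjusted p values from 0.0179 to 0.919.

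The genes of calcium-binding proteins also differed between the group means by less than the SD. *Pvalb* (ENSMUSG00000005716, chromosome 15, 78191114 to 78206400), which encodes parvalbumin of fast-spiking basket and axo-axonic cells, was at 733, 620, 555 and 734 after vehicle and at 689, 580, 677 and 640 after corticosterone, with all corticosterone values inside the vehicle range. Its log2 fold change was -0.03 (SE 0.103, edgeR adjusted p = 0.923) and the fold change lay between 0.840 and 1.14. *Calb2* (ENSMUSG00000003657, chromosome 8, 110137502 to 110168210) encodes calretinin, a protein of interneurons that contact other interneurons and, in the mouse, also of hilar mossy cells. It was at 1253, 1472, 1159 and 1098 after vehicle and at 1155, 1407, 1452 and 1241 after corticosterone. The highest vehicle library exceeded all corticosterone libraries, and the log2 fold change of *Calb2* was 0.08 (SE 0.102, edgeR adjusted p = 0.777), with a fold change between 0.905 and 1.23.

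*Lamp5* (ENSMUSG00000027270, chromosome 2, 136052239 to 136069917) encodes a lysosome-associated membrane protein and names the class that includes neurogliaform cells. It was at 651, 598, 595 and 585 after vehicle and at 665, 708, 694 and 642 after corticosterone. Vehicle library 1 exceeded corticosterone library 8, and otherwise the groups were apart. The log2 fold change of *Lamp5* was 0.16 (SE 0.076, edgeR adjusted p = 0.545), the fold change lay between 0.995 and 1.25, and the exact two-sided permutation p was 0.0571. It stayed above 0 under all 17 alternatives run, with log2 fold changes from 0.13 to 0.19 and adjusted p values from 0.169 to 0.919. *Reln* (ENSMUSG00000042453, chromosome 5, 21884454 to 22344702) encodes reelin, an extracellular protein of Cajal-Retzius cells and of interneurons. It was at 1071, 1051, 1367 and 1482 after vehicle and at 1348, 1229, 1246 and 1263 after corticosterone, so that the corticosterone values lay between a low and a high pair of vehicle libraries. The log2 fold change of *Reln* was 0.03 (SE 0.106, edgeR adjusted p = 0.917) and the fold change lay between 0.873 and 1.20. Among the members, *Reln* alone shared exonic bases with a gene on the opposite strand (*Gm10475*, 246 bases), and since the strand setting of the counting is not given in the sources used here, its reads may include those of the antisense gene.

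**Figure D2:**
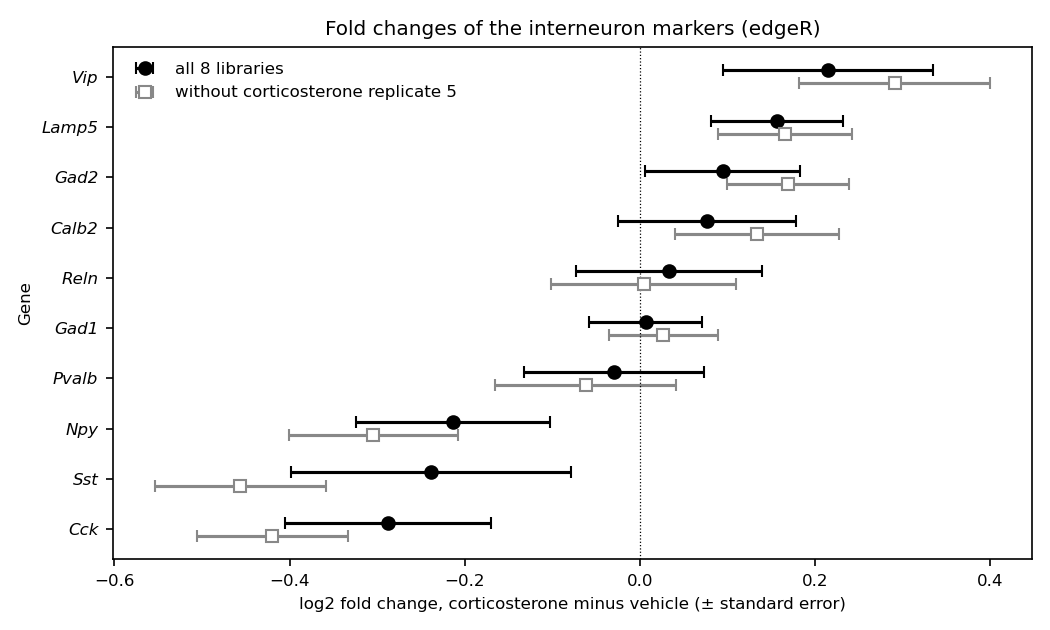
Log2 fold changes of the 10 markers, corticosterone minus vehicle (horizontal axis), with bars of ± 1 SE from the edgeR fit, for all 8 libraries (filled circles) and without corticosterone library 5 (open squares). *Sst* moved from -0.24 to -0.46 and *Cck* from -0.29 to -0.42 when library 5 was left out.

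Without corticosterone library 5, *Sst* and *Cck* were called. Each library was left out in turn, and library 5 is singled out because it stood apart over all genes. The comparison of 4 vehicle with 3 corticosterone libraries called 10.2% of all genes tested (6.47% lower and 3.73% higher), so that 2 of 10 members is read against that share. *Sst* was then at 3872 ± 86 after corticosterone (SD, n = 3), with a log2 fold change of -0.46 (SE 0.098, edgeR adjusted p = 0.0179). *Cck* was at 3699 ± 273 (n = 3), with a log2 fold change of -0.42 (SE 0.086, edgeR adjusted p = 0.0178). For both genes the 3 remaining corticosterone libraries lay below all 4 vehicle libraries. A total of 6 members had an unadjusted p value under 0.05, against 29% of all genes. The other 4 were *Npy* with a log2 fold change of -0.30 (edgeR adjusted p = 0.0582), *Vip* with 0.29 (0.0961), *Gad2* with 0.17 (0.124) and *Lamp5* with 0.17 (0.169). *Gad1*, *Pvalb*, *Reln* and *Calb2* had log2 fold changes of 0.03, -0.06, 0.004 and 0.13.

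*Sst* and *Cck* were not called in a further fit without library 5, which was added after seeing the data. After the dependence of each library on base composition (GC content) and on transcript length was taken out, and without library 5, the log2 fold changes were -0.28 for *Sst* (SE 0.068, edgeR adjusted p = 0.0568) and -0.22 for *Cck* (SE 0.057, adjusted p = 0.0693), and 0 of 10 members were called, against 1.31% of all genes. An unadjusted p value under 0.05 was seen for 4 members there, *Sst*, *Cck*, *Lamp5* and *Calb2*, against 16.3% of all genes. With all 8 libraries and this trend removed, *Sst* was at -0.15 and *Cck* at -0.17, and 0 members were called (0.131% of all genes), with *Cck* and *Lamp5* at an unadjusted p value under 0.05 (9.73% of all genes). The transcripts of *Sst*, *Npy* and *Cck* are short, at 721, 566 and 799 bases for the longest transcript, and have GC contents of 56.0%, 53.7% and 56.9%. *Gad2* and *Vip*, whose fitted fold changes lay on the other side of 0, have longest transcripts of 5744 and 2532 bases and GC contents of 44.1% and 38.7%. *Calb2* and *Lamp5*, which also had fold changes above 0, have longest transcripts of 1431 and 1955 bases and GC contents of 53.5% and 50.6%. *Gad1*, *Pvalb* and *Reln* have 3601, 977 and 11699 bases and 47.3%, 49.3% and 51.1%, so that the sign of the fold change did not follow length or GC content in every member. The part of transcript length and GC content in the differences between single libraries was not tested beyond these fits.

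Corticosterone library 5 and vehicle library 4 differed from the rest of their groups in many members. On the log2 scale, corticosterone library 5 was above the mean of corticosterone libraries 6 to 8 by 0.72 for *Sst*, 0.47 for *Cck*, 0.34 for *Npy*, 0.13 for *Pvalb* and 0.11 for *Reln*. It was below that mean for *Vip* (difference -0.32), *Gad2* (-0.32), *Calb2* (-0.24), *Gad1* (-0.08) and *Lamp5* (-0.03). Vehicle library 4 was the lowest vehicle library for *Sst*, *Cck*, *Npy*, *Lamp5* and *Calb2*, and the highest for *Gad1*, *Gad2*, *Vip*, *Pvalb* and *Reln*. For 6 members (*Sst*, *Cck*, *Npy*, *Gad1*, *Gad2* and *Vip*) vehicle library 4 thus deviated from the rest of its group in the direction opposite to corticosterone library 5, and for the other 4 in the same direction. These are the libraries that also lay between the groups in their share of ambiguous reads (1.40% and 1.48%). In the covariate fit above the signs of *Sst*, *Cck*, *Npy*, *Vip*, *Gad1*, *Gad2* and *Reln* changed. Because the share largely followed treatment in the other libraries, that fit cannot show whether the share has a part in these deviations, and this was not tested otherwise.

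**Figure D3:**
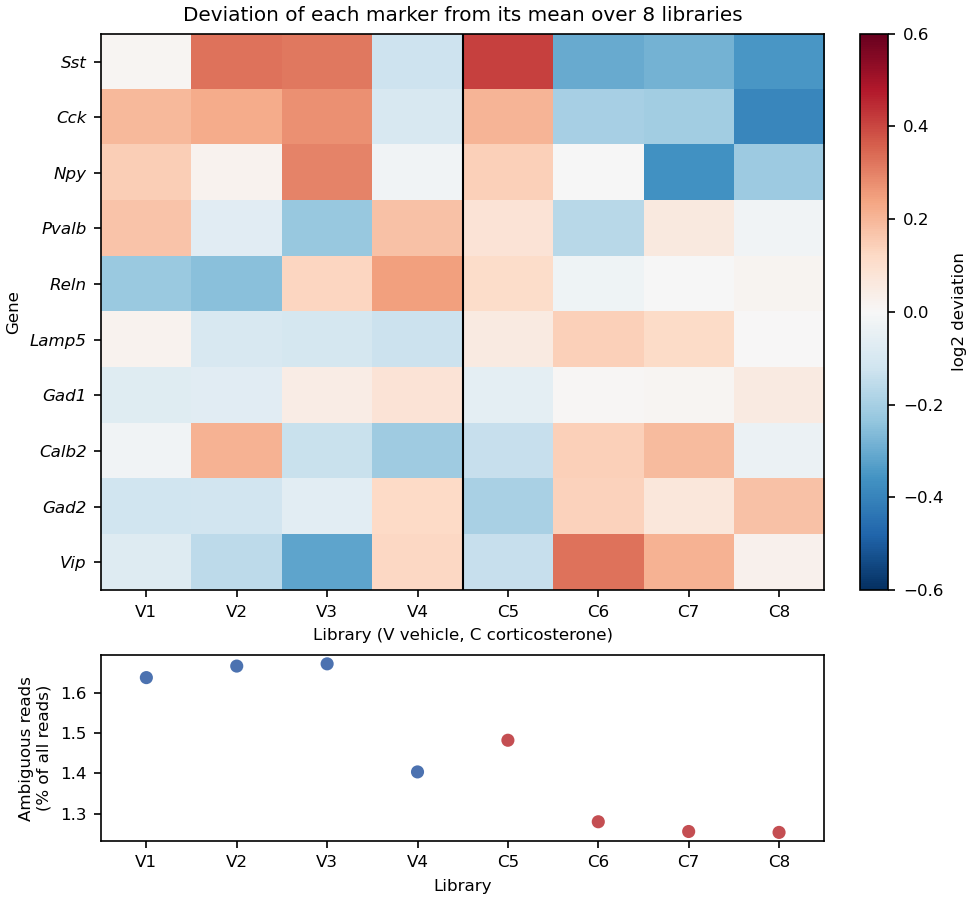
Upper panel: log2 deviation of each marker from its mean over the 8 libraries (red above, blue below), with libraries in columns and genes in rows, ordered by the difference between C5 and C6 to C8. Lower panel: percentage of reads that were ambiguous in each library (axis not from 0). *Sst* and *Cck* are below their means in V4 and C6 to C8 and above them in V1 to V3 and C5, and the ambiguous share is 1.25% to 1.48% in V4 and C5 to C8 against 1.64% to 1.67% in V1 to V3.

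The spread between mice differed among the members. The coefficient of variation of *Gad1* was 5.57% after vehicle and 3.18% after corticosterone, and that of *Lamp5* 4.88% and 4.37%. The medians over all genes tested were 10.4% and 11.9%, so that these 2 genes varied less than most. *Sst* had the widest spread of the members after corticosterone, at 28% (vehicle 15.4%), which placed it above 87.8% of all genes tested in that group, followed by *Cck* at 18.3%. Both values rest on library 5, since the coefficients over corticosterone libraries 6 to 8 were 2.21% for *Sst* and 7.39% for *Cck* (n = 3). For *Reln* the spread was 17.3% after vehicle and 4.15% after corticosterone. Over libraries 6 to 8 it was 1.35% for *Reln* and 1.84% for *Gad1*. These values rest on 4 mice a group, and the spreads of the groups were not compared by a test.

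Per length of gene, *Sst*, *Cck* and *Npy* had the highest levels of the members, while the peptide gene *Vip* was the ninth of 10. Levels are given here as normalized CPM (counts scaled to a fixed library total) per kilobase of all annotated exon bases of the gene. After vehicle, *Sst* was at 385 ± 59 (SD, n = 4), *Cck* at 198 ± 22, *Npy* at 92.3 ± 9.4 and *Gad1* at 48.8 ± 2.7. *Sst* thereby exceeded 99.7% of the genes tested. *Calb2* (37.3 ± 4.9), *Pvalb* (33.1 ± 4.4) and *Gad2* (30.9 ± 2.5) followed, and in this order each neighbouring pair had overlapping ranges. *Lamp5* (10.8 ± 0.5), *Vip* (6.38 ± 0.82) and *Reln* (2.73 ± 0.47) were the lowest, and all other neighbours in the order were apart in their ranges. *Reln* exceeded 37.7% of the genes tested. After corticosterone the order was the same except that *Gad2* (33.0 ± 3.6) and *Pvalb* (32.4 ± 2.4), whose ranges overlapped, changed places. These levels depend on the length used. With the longest transcript in place of all exon bases, *Reln* was at 5.55 and *Cck* at 323 after vehicle, and *Calb2* (45.4), *Lamp5* (16.2) and *Vip* (8.57) were also higher by more than their SD. *Gad1*, whose exons span 7639 bases in all and 3601 bases in the longest transcript, was then at 104 and *Npy* at 92.3. This was the only change in the order after vehicle.

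**Figure D4:**
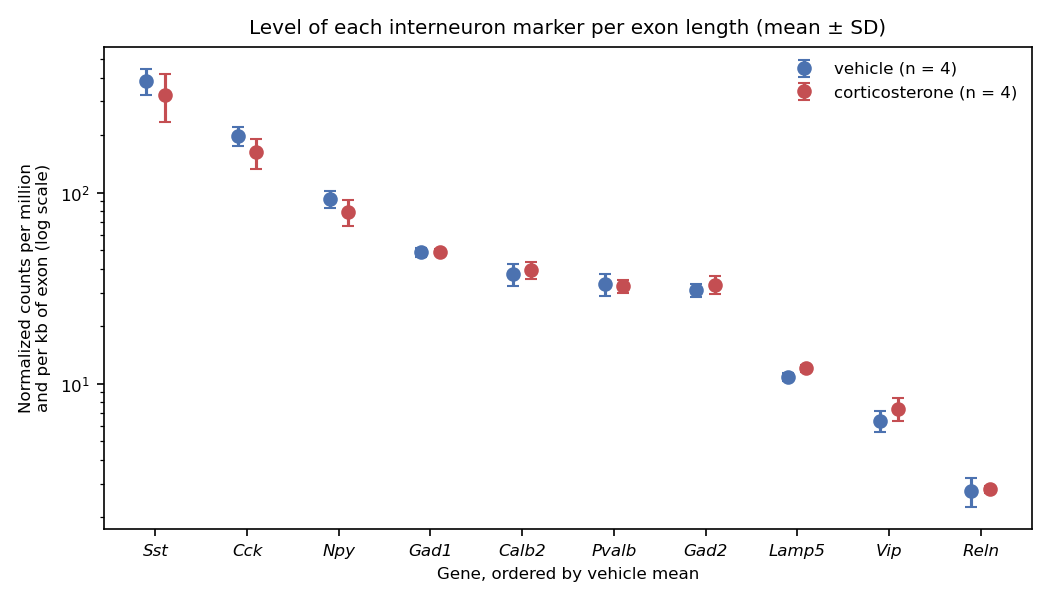
Level of each marker in normalized CPM per kb of exon (vertical axis, log scale), as mean ± SD of 4 vehicle (blue) and 4 corticosterone (red) libraries, ordered by the vehicle mean. Levels span from 2.73 for *Reln* to 385 for *Sst* after vehicle.

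Levels of the class markers were also taken relative to the enzymes of the same library, as the log2 level of a marker minus the mean log2 level of *Gad1* and *Gad2*. For *Sst* this value was 0.03, 0.34, 0.25 and -0.30 after vehicle and 0.46, -0.45, -0.40 and -0.54 after corticosterone. For *Cck* it was 0.11, 0.13, 0.09 and -0.38 after vehicle and 0.14, -0.46, -0.44 and -0.69 after corticosterone. The corticosterone libraries other than library 5 were below all vehicle libraries for both genes, and the groups overlapped through library 5. The differences between the group means were -0.31 for *Sst* (exact two-sided permutation p = 0.314), -0.35 for *Cck* (p = 0.143) and -0.27 for *Npy* (p = 0.229). They were 0.16 for *Vip* (exact p = 0.257), 0.11 for *Lamp5* (p = 0.314), -0.07 for *Pvalb* (p = 0.571), 0.03 for *Calb2* (p = 0.857) and -0.0009 for *Reln* (p = 1), over 8 markers compared. After Benjamini-Hochberg adjustment over these 8 exact p values the smallest was 0.503. The ratio of *Gad1* to *Gad2* counts was 1.95 to 2.16 after vehicle and 1.82 to 2.20 after corticosterone, with the highest ratio in library 5.

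Other genes of the GABA pathway did not pass the test. Counts for this and the following lists are those of edgeR with all 8 libraries unless stated otherwise. Over all genes tested, 0.00624% were called there, and 4.51% were higher and 4.52% lower at an unadjusted p value under 0.05. Of the 6 genes tested that load, take up or break down GABA, 0 were called, 0 rose and 1 was lower at an unadjusted p value under 0.05, and the median log2 fold change was 0.02. This gene was *Slc6a11*, a GABA transporter of astrocytes, with 3580 ± 141 normalized counts after vehicle and 3256 ± 131 after corticosterone (SD, n = 4 each). Its groups did not overlap, and the log2 fold change was -0.14 (SE 0.063, edgeR adjusted p = 0.545). The vesicular GABA transporter *Slc32a1*, chosen here after its values were seen because it marks the same cells, was at 1486, 1833, 2050 and 1422 after vehicle and at 1934, 1306, 1329 and 1204 after corticosterone. It had a log2 fold change of -0.23 (edgeR adjusted p = 0.590), and, as for *Sst*, corticosterone libraries 6 to 8 lay below every vehicle library while library 5 did not. Without library 5 the log2 fold change of *Slc32a1* was -0.41 (adjusted p = 0.0352), and with the GC and length trend also removed it was -0.05. *Slc32a1* shares 697 exonic bases with the antisense gene *Gm14205*. Taken relative to *Slc32a1* instead of the enzymes, the differences between the group means were -0.02 for *Sst*, -0.05 for *Cck*, 0.02 for *Npy*, 0.46 for *Vip*, 0.40 for *Lamp5*, 0.22 for *Pvalb*, 0.32 for *Calb2* and 0.29 for *Reln*. The differences of *Sst* and *Cck* relative to the enzymes were thus not seen relative to *Slc32a1*, and the exact two-sided permutation p values of these 8 comparisons were 0.114 to 0.771.

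Transcription factors that specify interneurons gave 0 called genes of 16 tested, with 0 higher and 1 lower at an unadjusted p value under 0.05 and a median log2 fold change of -0.06. The gene was *Nr2f1*, a nuclear receptor of interneurons from the caudal ganglionic eminence that pyramidal cells also express, at 1426, 1524, 1523 and 1362 after vehicle and 1331, 1213, 1194 and 1219 after corticosterone. Its groups did not overlap, with a log2 fold change of -0.24 (SE 0.069, edgeR adjusted p = 0.418), which became -0.05 once the GC and length trend was taken out. Without library 5 *Nr2f1* was called (log2 fold change -0.27, edgeR adjusted p = 0.0253), and with that trend also removed it was at 0.02. *Nr2f1* shares 123 exonic bases with an antisense gene. *Prox1*, the most abundant gene of this list, which granule cells express as well, was at 1650 ± 208 and 1664 ± 294 (SD, n = 4 each).

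Further genes of the Sst and Pvalb classes gave 0 called of 13 tested, with 0 higher and 2 lower at an unadjusted p value under 0.05 and a median log2 fold change of 0.04. These were *Kcnc1*, a potassium channel of fast-spiking cells (3602 ± 307 and 3136 ± 231 normalized counts, log2 fold change -0.20, edgeR adjusted p = 0.529), and *Elfn1*, a synaptic adhesion protein of somatostatin cells (666 ± 127 and 533 ± 95, log2 fold change -0.32, adjusted p = 0.545). Both had overlapping groups. Without library 5 they were called at log2 fold changes of -0.25 and -0.45, and with the GC and length trend also removed the values were -0.07 and -0.22. *Chodl*, a marker of long-range somatostatin cells, had 0 to 18 reads and was not tested. Further genes of the Vip, Lamp5 and Sncg classes gave 0 called and 0 at an unadjusted p value under 0.05 of 13 tested by edgeR, with a median log2 fold change of -0.01. Of this list *Cnr1*, the cannabinoid receptor of Cck basket cells, was the most abundant, at 4150 ± 244 and 4243 ± 263. *Cnr1* thus differed by less than the spread between mice, at a log2 fold change of 0.03 (SE 0.070, edgeR adjusted p = 0.872). *Chat*, with 0 to 2 reads, was not tested.

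The receptors of these peptides and the receptors and adaptor of reelin gave 0 called of 13 tested. At an unadjusted p value under 0.05, 0 were higher and 1 was lower, *Vipr1*, a receptor of vasoactive intestinal peptide, at 331 ± 60 after vehicle and 270 ± 28 after corticosterone (SD, n = 4 each, log2 fold change -0.29, edgeR adjusted p = 0.545). *Dab1*, the adaptor that reelin signals through, was the most abundant, at 2776 ± 181 and 2806 ± 167. *Sstr5* and *Cckar* had at most 4 reads in a library and were not tested. Without library 5 the somatostatin receptor gene *Sstr3*, named after its values were seen, was called as well, at a log2 fold change of -0.43 (adjusted p = 0.0362), and with the GC and length trend also removed it was at -0.24.

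Several members are not confined to interneurons, so that markers of other cells are given beside them. For pyramidal and granule cells, which also express *Cck*, 0 of 10 genes were called, and 2 were lower at an unadjusted p value under 0.05, *C1ql2* (log2 fold change -0.42, edgeR adjusted p = 0.282) and *Neurod2* (-0.36, adjusted p = 0.499). The median of this list was -0.14. Without library 5 both were called, at -0.45 and -0.46, where 6.47% of all genes tested were called lower. The most abundant gene of this list, *Camk2a*, was at 89650 ± 9653 and 83393 ± 4079, and the summed level of the list was 121603 to 152972 after vehicle and 115833 to 134612 after corticosterone. The part of pyramidal cells in the values of *Cck* was not tested. For Cajal-Retzius cells, which express *Reln*, 3 of 5 genes were tested, none was called or had an unadjusted p value under 0.05 in edgeR, and the summed level was 104 to 162 after vehicle and 111 to 130 after corticosterone. *Nhlh2*, the most abundant over all 8 libraries, was at 47.6 ± 9.5 and 55.3 ± 9.0, and *Trp73*, named after its values were seen and higher after vehicle, at 54.5 ± 20.4 and 43.6 ± 12. *Lhx1* and *Lhx5*, which define these cells, had at most 10 reads in a library. Of 4 genes of hilar mossy cells, which express *Calb2*, 0 were at an unadjusted p value under 0.05, and *Calcrl* was the most abundant, at 108 ± 15 and 125 ± 38. Without library 5 a mossy cell gene named after its values were seen, *Glipr1*, was called higher (log2 fold change 0.75, edgeR adjusted p = 0.0412).

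*Calb2* is also expressed in the thalamus, which lies beside the hippocampus. Summed over 6 thalamic markers, the level was 1680, 2341, 938 and 1090 after vehicle and 939, 1971, 2563 and 1045 after corticosterone. *Prkcd*, chosen after its values were seen, was at 560, 745, 222 and 178 after vehicle and at 240, 668, 713 and 214 after corticosterone. *Tcf7l2*, chosen in the same way, was at 212, 201, 60.6 and 61.2 after vehicle and at 52.6, 193, 247 and 53.6 after corticosterone. For both genes vehicle libraries 1 and 2 and corticosterone libraries 6 and 7 were high and the other 4 low, and these are the 4 libraries with the highest *Calb2* counts (1253 to 1472, against 1098 to 1241 in the others). *Slc17a6*, the most abundant gene of the list, did not split in this way, at 449, 665, 336 and 504 after vehicle and 300.2, 588, 926 and 453 after corticosterone, and neither did *Lef1*, whereas the remaining genes of the list, *Synpo2* and *Rgs16*, had their 4 highest values in these libraries. These 3 genes, too, are named after their values were seen. The high libraries for *Prkcd* and *Tcf7l2* were 2 in each group, and 0 of the 6 thalamic genes had an unadjusted p value under 0.05 in edgeR. The part of thalamic tissue in the values of *Calb2* was not tested.

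**Figure D5:**
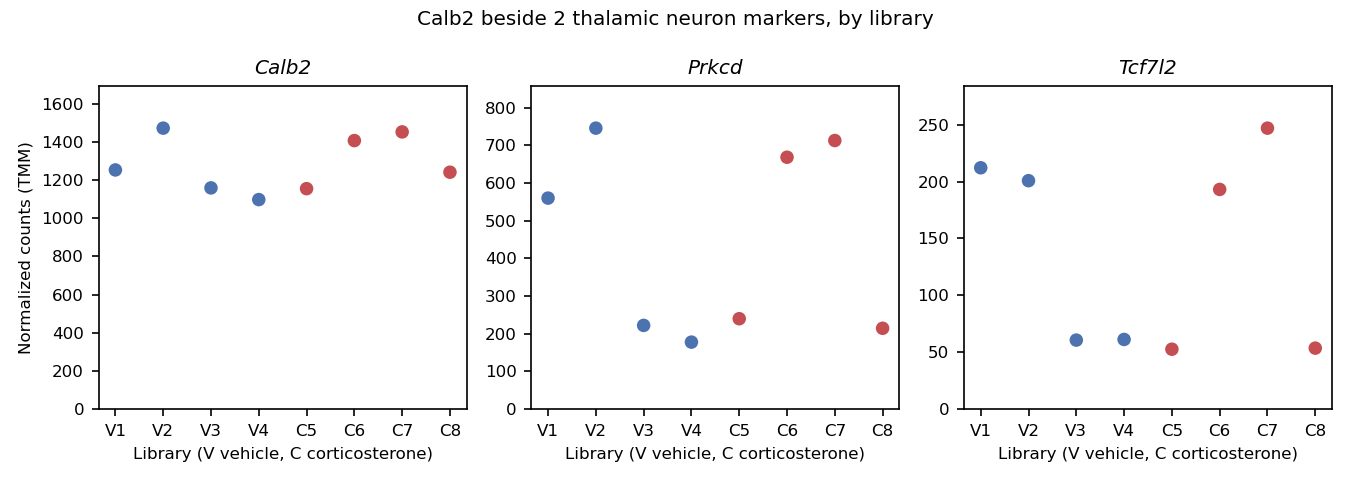
Normalized counts (vertical axes, from 0) of *Calb2* and of the thalamic markers *Prkcd* and *Tcf7l2* in each library (V1 to V4 vehicle, C5 to C8 corticosterone). *Prkcd* is at 560 to 745 in V1, V2, C6 and C7 and at 178 to 240 in the other libraries, and the former are the libraries with the highest *Calb2* counts.

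Striatal neurons are GABAergic and express *Gad1* and *Gad2*. Of 6 striatal markers 0 were called by edgeR and 1 had an unadjusted p value under 0.05, in the higher direction. The summed level was 1404 to 1455 after vehicle and 1468 to 1620 after corticosterone, without overlap. It was mostly that of *Ppp1r1b*, at 991 ± 90 and 945 ± 128. The part of striatal tissue in the values of *Gad2* was not tested. Lists of non-neuronal cells gave 0 called genes in the edgeR test of all 8 libraries. At an unadjusted p value under 0.05, 2 of 5 choroid plexus genes were higher (*Clic6* and *Otx2*, log2 fold changes 1.16 and 1.04), and 1 of 6 astrocyte genes (*Gja1*, -0.15), 3 of 6 oligodendrocyte genes (among them *Mbp*, -0.46, and *Cnp*, -0.35), 2 of 6 microglial genes (*Cx3cr1*, -0.76, and *P2ry12*, -0.47) and 2 of 6 endothelial genes (*Cldn5*, -0.72, and *Kdr*, -0.36) were lower. Of all genes tested, 4.51% were higher and 4.52% lower at this level. The summed levels of 2 of these lists did not overlap between the groups. For microglia they were 7039 to 7270 after vehicle and 5564 to 6993 after corticosterone, and for endothelial cells 2179 to 2330 and 1884 to 2073. Apart from these lists and the striatal one, the summed levels of every list overlapped between the groups. Sums of lists were not tested, and no background share was computed for them. Of single genes tested, 3.66% had groups without overlap. Without library 5, the comparison that called *Sst* and *Cck* also called 4 of 6 microglial genes lower (*Cx3cr1*, -0.90, *Tmem119*, -0.59, *P2ry12*, -0.41, and *Csf1r*, -0.24), 2 of 6 oligodendrocyte genes (*Mbp*, -0.64, and *Mag*, -0.56) and 1 of 6 endothelial genes (*Cldn5*, -1.01). Of all genes tested, 6.47% were called lower in that comparison. The values of these genes with the GC and length trend removed are not given here. *Tmem119*, *Csf1r* and *Mag* are named after their values were seen. The part of these cells in the values of the members was not tested. As for *Sst*, library 5 stood apart for *Mbp*, with corticosterone library 5 at 29002 and libraries 6 to 8 at 18193 to 19276.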

How the data were processed

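The authors sequenced stranded mRNA libraries of ventral hippocampus as 100-bp paired ends, aligned the reads to mm10 with GSnap and counted them per gene with HTSeq-count, and they deposited raw counts without normalization. The annotation release and strand setting of the counting are not given in the sources used here. The 5 summary lines that name no gene were left out of library sizes and tests, and 84.6% to 86.3% of reads were on genes. Symbols and coordinates came from GENCODE M21 of GRCm38, in which 50376 of 50686 identifiers were found, and promoters from RefSeq (GRCm38.p6), in which 9 of 10 members were matched by symbol. All 8 columns were used.

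Counts were normalized with TMM, filtered with filterByExpr and tested over all genes with the quasi-likelihood test of edgeR 4.0.16 (R 4.3.3), with p values adjusted by Benjamini-Hochberg and called under 0.05. Log2 values used a prior count of 2. The study used DESeq2, and DESeq2 1.42.0 was an alternative here, as were limma-voom (limma 3.58.1), other size factors, other filters, the ambiguous share as a covariate and each library left out. Removal of the trend with GC content and length (splines with 5 degrees of freedom), with and without corticosterone library 5, was added after seeing the data. In all, 17 alternatives were fitted to all genes. Replicate pairs differed by more than sampling noise (chi-square per gene 3.40 to 32.6), and no library was a duplicate.

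The members and lists were chosen with earlier results of these data known. Besides the members, the named genes were the 2 with the smallest unadjusted p value under 0.05 in each direction and the most abundant gene of each of 15 other lists, any gene of these lists with an adjusted p value under 0.05, and *Fkbp5*. Other genes are named only where the text says that they were chosen or named after their values were seen, that they were not tested or that they overlap a named gene. Some single genes under this rule are left out of the text and stay in the list counts. The scripts were tested on simulated counts, which lacked the differences between libraries of a group described above. There edgeR found 82.8% of the genes with a log2 change of 1 and 56.1% of those with a change of 0.5. Of its calls, 6.16% were false. Smaller changes, such as those fitted for the members with all 8 libraries, were not simulated.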

Additional observations from a re-analysis of the deposited data

Results flagged for a closer look

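Single libraries were far from the other 3 of their group (Dixon's criterion for 4 values) in 9 of 94 sets of 4 values examined, where chance gives 4.7. For *Sst*, corticosterone library 5 was at 6388 normalized counts against 3778 to 3944 in the other corticosterone libraries. Relative to *Gad1* and *Gad2*, *Sst* in the same library was at 0.46 on the log2 scale against -0.54 to -0.40. Relative to the same enzymes, *Reln* in corticosterone library 5 was at -1.78 against -2.12 to -2.06, and *Cck* in vehicle library 4 was at -0.38 against 0.09 to 0.13. Among the genes of the other lists, *C1ql2* was at 881 normalized counts in corticosterone library 8 (others 1116 to 1150). *Mbp* was at 29002 in corticosterone library 5 (others 18193 to 19276), and *P2ry12* at 749 in vehicle library 4 (others 585 to 610). Corticosterone library 7 was apart for *Kdr*, at 84.1 (others 101 to 103), and for *Flt1*, at 755 (others 676 to 685).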

How the results depend on the processing

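No paired analysis was possible because the groups share no replicate number. In edgeR, 1 gene was differentially expressed, against 63 with DESeq2, 79 without a filter, 38 with the ambiguous share as a covariate, 21 with the GC and length trend removed, 211 with that trend and corticosterone library 5 removed, and 0 with at least 10 counts in every sample (1330 genes at an unadjusted p value under 0.05). This number ranged from 0 to 1651 when single libraries were left out, with 19 without vehicle library 1, 1651 without corticosterone library 5 and 0 without each of the others. The number of members called ranged from 0 to 2, with 2 (*Sst* and *Cck*) without corticosterone library 5 and 0 under the other 16 alternatives, and 4 to 7 members were above 0 throughout. The cause was not tested. With the ambiguous share, which largely followed treatment, as a covariate the log2 fold changes were reversed for *Gad1* (-0.10), *Gad2* (-0.21), *Sst* (0.36), *Vip* (-0.15), *Npy* (0.0892), *Cck* (0.16) and *Reln* (-0.10). With single libraries left out, *Gad1* ranged from -0.0196 to 0.0310, *Pvalb* from -0.108 to 0.0204 and *Reln* from -0.0388 to 0.124. With the GC and length trend removed *Gad1* was at -0.0388, and with corticosterone library 5 also left out *Gad1* was at -0.0388 and *Reln* at -0.00515. *Lamp5* and *Calb2* kept their direction under all 17 alternatives. Relative to *Gad1* and *Gad2*, differences were reversed with *Slc32a1* as reference for *Pvalb* (0.219), *Npy* (0.0223) and *Reln* (0.291), and with single libraries left out *Pvalb* ranged from -0.158 to 0.00438, *Reln* from -0.0796 to 0.0475 and *Calb2* from -0.0686 to 0.136. Each member had 365 to 7669 reads in a library, so that counting error is relatively larger for *Vip*, *Pvalb* and *Lamp5*, which had at most 746 reads, than for *Gad1*.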
